A study of Mus musculus with 6 samples.

Results

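The genes described here build the route by which cells make, fold and ship secreted proteins: ER targeting, translocation, folding, vesicle coats, cargo receptors and the transcription factors that tune them. They were chosen by gene symbol alone, with a pattern covering the Sec, Ssr, Spcs, Srp, Kdelr, Pdia, Cop and Tmed families and a set of single genes such as Calr, Hspa5, Serpinh1, Mia3, Creb3l1 and Creb3l2. The pattern took 75 of the 13158 genes in the table. Of these, 72 had enough counts to be tested. Sec14l2, Sec16b and Tmed8, with 21, 36 and 23 counts over all libraries, did not. Sec14l1 and Sec14l2 matched the pattern by name only, since the proteins of that family bind and transfer lipids.

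A secreted protein is recognised as it leaves the ribosome by the signal recognition particle, threaded into the endoplasmic reticulum (ER) through the Sec61 translocon and trimmed by signal peptidase. Chaperones and disulfide isomerases fold it there, COPII-coated vesicles carry it towards the Golgi, and COPI-coated vesicles and the KDEL receptors bring escaped ER residents back. Tendon and cartilage precursors use this route for procollagens, whose rigid rods are longer than an ordinary COPII vesicle and need a dedicated chaperone (Serpinh1) and a dedicated loading factor (Mia3). Cells that make much of such cargo can raise the whole route through the unfolded protein response and through ER-anchored factors of the CREB3 family.

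The libraries came from mouse forelimbs (C57BL/6, labelled wild-type and untreated) at embryonic day 13.5. All of them were made from cells sorted for tdTomato, switched on from Rosa26 by the Sox9-CreERT2 allele, and for the ScxGFP reporter. Every group therefore carried these 3 alleles, the tdTomato label records past Sox9 activity rather than present Sox9 expression, and ScxGFP reports the tendon factor Scleraxis. There were 3 libraries of cells from the proximal and 3 from the distal part of the dissected forelimb, and the comparison asks what differs between these regions. Whether each library had its own embryos is stated nowhere. The sample titles repeat the same 3 numbers in both regions, with no word on whether a number marks a shared litter or pool. The p-values therefore set the difference against library-to-library spread, part of which may be technical.

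Total counts ran from 1585631 to 2623788 per library and 12600 to 12924 genes had counts. A count of 0 allows up to 3 counts, which is 1.14 to 1.89 CPM (reads of a gene per fixed total) over the unscaled library totals. All other CPM values are scaled between libraries by TMM. Scx stood at 940.3 to 1629 CPM proximally and 2396 to 4088 CPM distally and Sox9 at 92.5 to 125 CPM and 267 to 362 CPM, so both genes of the sort were present in every library. Summed cartilage markers were at 361 to 715 CPM proximally and 1275 to 2543 CPM distally. Of 10 listed genes 9 were tested, and the edgeR test below called 7 higher in distal libraries, against 1.11% of all genes. Summed skeletal muscle markers were at 207 to 586 CPM proximally and 36.5 to 51.5 CPM distally, with Myod1 below 2 CPM in each distal library. Of 9 listed genes 6 were tested, and 5 were called higher in proximal libraries, against 2.27% of all genes. In bulk samples, fewer cells of a type and less RNA per cell cannot be told apart. Proximal library 1 stood apart with 11.7% of its counts in Rn45s, the ribosomal RNA precursor, against 2.20% to 6.81% in the other libraries.

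The retrieval signal that defines much of the folding machinery is shown first, because it is what the KDEL receptors read. Of the 75 genes, 6 have a GENCODE M21 coding sequence that ends in the KDEL signal or, for Serpinh1, in its RDEL form. Pdia3, Pdia4 and Pdia5 end in other forms of retrieval signal, which were not counted among the 6. Each line gives the last 24 coding bases before the stop codon, 5′ to 3′, with the 12 bases of the signal in capitals.
Calr: cctggccaagccAAGGATGAGCTG
Hsp90b1: gaatctacagagAAGGATGAATTG
Hspa5: gatacatcagaaAAAGATGAGTTG
P4hb: cagaaagctgtgAAGGATGAACTG
Pdia6: gatgacctggagAAGGATGAGTTG
Serpinh1: ggagacaagatgCGAGATGAGTTG
No pair of the 6 genes shares the same 12 bases. These genes encode the abundant lumenal chaperones calreticulin, GRP94, BiP, protein disulfide isomerase, its relative P5 and the collagen chaperone HSP47.

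Promoters were searched on both strands for the ER stress response element (ERSE), spelled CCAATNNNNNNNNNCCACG, which is bound by NF-Y together with ATF6 or XBP1. In RefSeq promoter sequences (GRCm38.p6, 250 bases before to 50 after the start), 39 of 32851 promoters held it (0.119%). Among the secretory genes, 64 had a promoter entry, with 69 entries in all, and 6 of these entries (8.70%), each of a different gene, held it. All 6 genes encode folding factors. The lines below give each match in capitals with 5 flanking bases on either side, read along the gene's own strand. In Calr and in the second Hsp90b1 match the element lies on the opposite strand. The Hspa5 match is upstream of the RefSeq start but downstream of the GENCODE M21 start at 34771970.
Hspa5, chr2:34772020-34772048: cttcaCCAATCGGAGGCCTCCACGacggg
Calr, chr8:84847070-84847098: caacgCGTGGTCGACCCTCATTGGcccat
Hsp90b1, chr10:86705633-86705661: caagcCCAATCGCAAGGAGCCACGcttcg
Hsp90b1, chr10:86705528-86705556: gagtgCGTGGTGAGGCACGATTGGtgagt
Canx, chr11:50325795-50325823: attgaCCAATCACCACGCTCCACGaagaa
Pdia6, chr12:17266486-17266514: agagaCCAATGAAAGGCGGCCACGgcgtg
Dnajc3, chr14:118937822-118937850: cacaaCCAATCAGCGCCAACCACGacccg
Hsp90b1 carried the element once on each strand, and the 185 bases upstream of its annotated starts (chr10:86705510-86705694, minus strand) are printed to show their spacing, with both matches in capitals.
Hsp90b1 promoter: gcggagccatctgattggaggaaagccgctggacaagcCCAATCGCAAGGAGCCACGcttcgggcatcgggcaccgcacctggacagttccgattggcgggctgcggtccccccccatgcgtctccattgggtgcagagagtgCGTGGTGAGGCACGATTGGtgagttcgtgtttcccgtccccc

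A second motif, the UPRE core TGACGTGG, which XBP1 and the CREB3-like factors can bind, shares the letters CCACG on one strand with the ERSE. It was found in 222 of the 32851 promoters (0.676%) and in 6 of the 69 entries (8.70%), those of Copb1, Copb2, Kdelr3, Sec16b, Sec23a and Sec24d. All 6 genes encode coat proteins, exit-site proteins or the retrieval receptor Kdelr3, and no gene held both motifs. The matches that lie wholly upstream of the RefSeq start with 10 flanking bases are given for the genes discussed below. In Copb1 and Kdelr3 the motif lies on the opposite strand. In Sec24d and Copb1 it lies just inside the gene by GENCODE M21, where Sec24d begins at 123267455 and Copb1 at 114254711.
Sec24d, chr3:123267460-123267487: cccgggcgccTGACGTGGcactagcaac
Copb1, chr7:114254691-114254718: ccgcccccttCCACGTCAgccaaggact
Kdelr3, chr15:79516368-79516395: ggccgccccgCCACGTCAccgcgcggcc
A match of letters describes the sequence and does not show binding.

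No secretory gene passed the test between proximal and distal progenitors, and for most of them a difference of 2-fold or more lay outside the 95% interval. The quasi-likelihood test of edgeR, at a threshold of 0.05 on the adjusted p, called 0 of 72 members towards distal and 0 towards proximal libraries, where 1.11% and 2.27% of all 9512 genes tested were called. DESeq2 and limma-voom also called 0 members. At an unadjusted p of 0.05, 2 of 72 members differed in edgeR, against 10.8% of all genes, and 2 and 3 did in DESeq2 and limma-voom. The 2 edgeR members were Creb3l1 and Sec24d, a transcription factor and a COPII cargo adaptor with known roles in making or exporting collagen, and both were lower in distal libraries. The log2 differences, that is the log2 of distal over proximal levels, ran from -0.77 for Creb3l1 to 0.28 for Sec11c. Of the members 24 were positive and 48 negative, with a median of -0.06. Over all genes 4870 were positive and 4642 negative, with a median of 0.01. The members' levels summed to 14240, 12880 and 13510 CPM in proximal libraries 1 to 3 and to 13570, 12480 and 12220 CPM in distal ones, so the regions overlapped.

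A missed threshold does not show equal levels, but the intervals bound how far apart they could be. The 95% interval of the difference stayed within 1 on the log2 scale, or 2-fold, in either direction for 66 of 72 members (91.7%) and for 6472 of 9512 genes (68.0%). The members outside that bound were Creb3l1, Sec24d, Copb1, Pdia3, Sec61g and Sec22a. The median coefficient of variation over the 6 libraries was 17.7% for members and 22.5% for all genes. Mean levels of the members ran from 11.98 CPM for Creb3l2 to 1145 CPM for Calr, and those of all genes tested from 3.80 to 54760 CPM. The shares and the variation above were not compared at matched levels, and the part of level in them was not tested. CPM here are counts of transcript 3′ ends that were not divided by length, so levels are compared within a gene and not between genes.

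**Figure D1:**
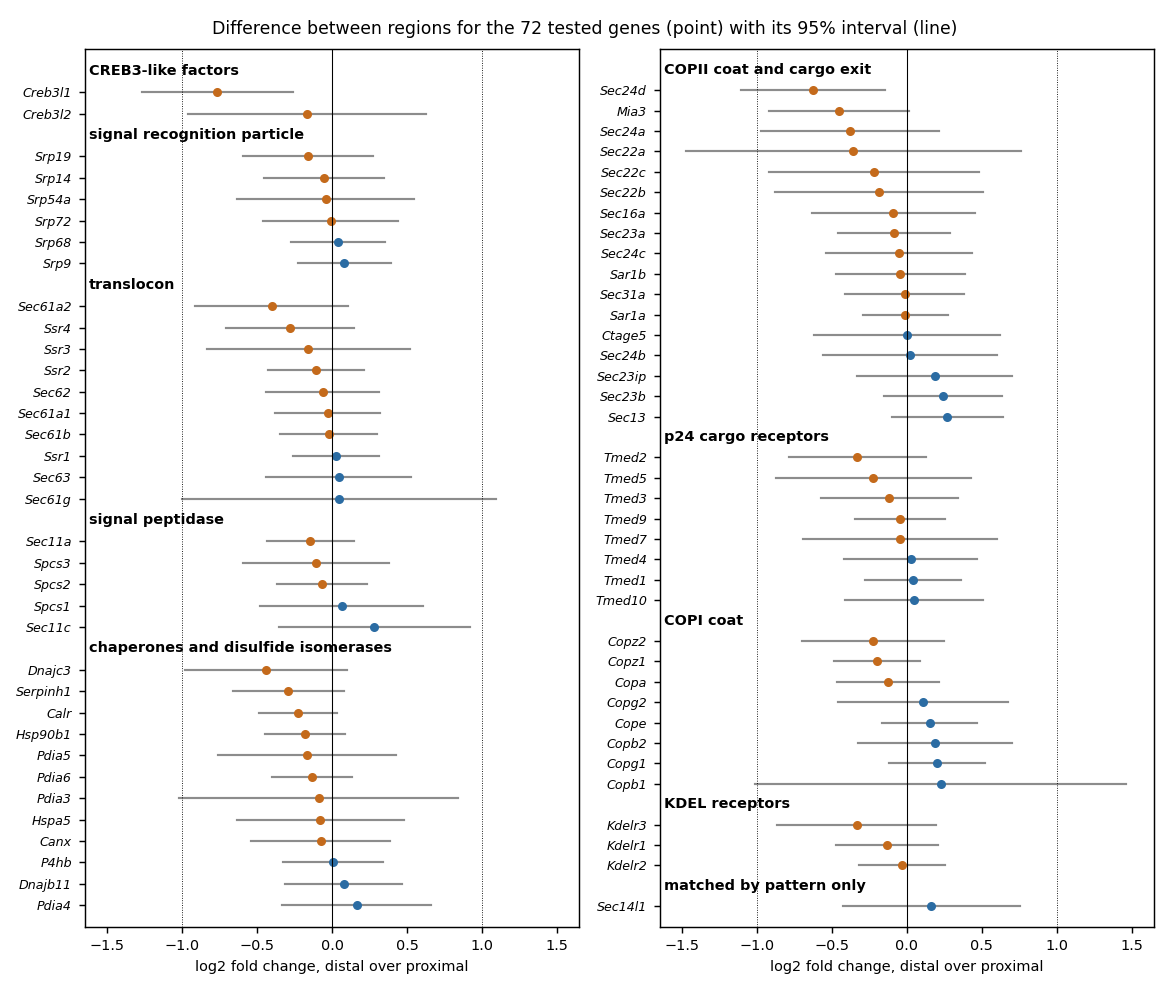
Each point is the log2 fold change (distal over proximal) of 1 of the 72 tested genes, grouped by role, and each line its 95% interval; orange points lie below 0, blue points above, and dotted lines mark a 2-fold difference. Most points sit near 0, Creb3l1 and Sec24d are the 2 whose intervals lie wholly below 0, and the intervals of Copb1, Sec22a, Sec61g and Pdia3 are wide.

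Without a test, the libraries of the regions did not overlap for 9 members. Copg1 alone was higher in all distal libraries (7.53% of all genes tested were), and 8 members were higher in all proximal libraries (8.67% of all genes were): Calr, Hsp90b1, Pdia6, Copz1, Sec24d, Sec24a, Creb3l1 and Sec61a2. With 3 libraries against 3, an exact two-sided permutation test of a single gene cannot go below 0.1. Summed over roles, the chaperones and disulfide isomerases stood at 4922 to 5343 CPM proximally and 4439 to 4784 CPM distally, and the CREB3-like factors at 54.2 to 83.8 CPM and 38.6 to 45.7 CPM. Taken singly, 3 of the 12 chaperones and isomerases and 1 of the 2 CREB3-like factors, Creb3l1, did not overlap. The sums of the other named roles overlapped between the regions. Muscle transcripts moved the same way as these 8 genes and cartilage transcripts the opposite way, and their part in these values was not tested.

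The 6 tested subunits of the signal recognition particle, which binds signal sequences at the ribosome, had log2 differences of -0.16 (Srp19) to 0.08 (Srp9). Srp19 stood at 118, 83.3 and 82.4 CPM proximally and 83.6, 95.4 and 73.5 CPM distally (SE 0.20; edgeR, adjusted p = 0.906). Srp9, which pauses translation together with Srp14, stood at 226, 187 and 184 CPM and at 223, 206 and 201 CPM (SE 0.14; edgeR, adjusted p = 0.944). The regions overlapped for both genes. Srp14, Srp72 and Srp68 had -0.05, -0.01 and 0.04. Srp54a, which binds the signal sequence itself, was at 14.2 ± 1.61 CPM (SD, n = 3) in proximal and 13.7 ± 1.27 CPM in distal libraries, but it has near-identical neighbouring copies that could share its reads.

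Among the 10 translocon genes, the pore subunits Sec61a1 and Sec61b had log2 differences of -0.03 (SE 0.16) and -0.02 (SE 0.15). Sec61b stood at 757, 639 and 641 CPM proximally and 777, 612 and 616 CPM distally. In each region library 1 was the highest, and the regions overlapped. Sec61a2, the second form of the pore subunit, had the most negative difference of the role. It stood at 30.1, 26.5 and 32.4 CPM proximally and 23.3, 25.9 and 18.4 CPM distally, a log2 difference of -0.40 (SE 0.23; edgeR, adjusted p = 0.642). The regions did not overlap, and Nudt5 covers the annotated 3′ end of Sec61a2, so that with no strand setting given their reads cannot be told apart.

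The Ssr genes encode the translocon-associated complex that helps many proteins enter, and none of its 4 genes passed the test. Ssr4 stood at 238, 167 and 191 CPM proximally and 201, 130 and 159 CPM distally, with the regions overlapping (log2 difference -0.28, SE 0.19; edgeR, adjusted p = 0.756). Ssr1 had the least spread of all members: its 6 libraries lay between 182 and 198 CPM, the highest 1.08 times the lowest. It averaged 187.9 ± 8.39 CPM proximally and 191.5 ± 6.84 CPM distally, with a 95% interval of -0.26 to 0.31 for the log2 difference. The other subunits Ssr2 and Ssr3 had log2 differences of -0.11 and -0.16, and Sec62 and Sec63, which assist entry after translation, -0.06 and 0.04.

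Signal peptidase, which cuts the signal sequence off, has alternative catalytic subunits, Sec11a and Sec11c. Their log2 differences were -0.14 (SE 0.13; edgeR, adjusted p = 0.848) and 0.28 (SE 0.29; edgeR, adjusted p = 0.876). Sec11a stood at 231, 225 and 214 CPM proximally and 216, 205 and 185 CPM distally, and Sec11c at 18.7, 11.04 and 19.8 CPM and at 22.8, 17.7 and 20.1 CPM. The regions overlapped for both, by a single library in Sec11a. The non-catalytic subunits Spcs1, Spcs2 and Spcs3 had log2 differences of 0.06, -0.07 and -0.11.

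Of the 12 tested chaperones and disulfide isomerases, 9 had negative and 3 positive differences, with a median of -0.11, and none passed the test. Calr encodes calreticulin, which holds newly made glycoproteins by their sugars. It stood at 1233, 1242 and 1230 CPM proximally and 1024, 1047 and 1094 CPM distally. The proximal libraries were within 12 CPM of each other and all above the distal ones. The distal level was 0.854 of the proximal one, a log2 difference of -0.23 (SE 0.12, 95% interval -0.49 to 0.03; edgeR, adjusted p = 0.582).

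Serpinh1 encodes HSP47, the chaperone that binds folded procollagen. It stood at 891, 960 and 1239 CPM proximally and 805, 737 and 986 CPM distally. Library 3 was the highest of each region, and distal library 3 lay above proximal libraries 1 and 2. The log2 difference was -0.29 (SE 0.17, 95% interval -0.66 to 0.08; edgeR, adjusted p = 0.648). P4hb, which is both a disulfide isomerase and a subunit of the collagen prolyl 4-hydroxylase, stood at 840, 894 and 979 CPM proximally and 1061, 757 and 907 CPM distally, with full overlap and a log2 difference of 0.01 (SE 0.15).

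Hsp90b1 (GRP94) and Pdia6 were each a little higher in every proximal library. Hsp90b1 stood at 405, 444 and 423 CPM proximally and 387, 369 and 368 CPM distally (log2 difference -0.18, SE 0.12; edgeR, adjusted p = 0.744). Pdia6 stood at 743, 788 and 738 CPM proximally and 712, 666 and 694 CPM distally (log2 difference -0.13, SE 0.12; edgeR, adjusted p = 0.853). In both genes the gap between the nearest proximal and distal libraries was smaller than the range within the proximal ones. Other genes, 1810014B01Rik and Atp6v1c2, cover their annotated 3′ ends, so their reads cannot be told apart without strand. The 6 genes whose promoters held the ERSE, Hspa5, Calr, Hsp90b1, Canx, Pdia6 and Dnajc3, had log2 differences from -0.44 for Dnajc3 (SE 0.24; edgeR, adjusted p = 0.628) to -0.08 for Canx and Hspa5, in a set where 48 of 72 members were negative. That of Hspa5 turned to 0.18 without proximal library 1 and to 0.14 without distal library 3, and that of Dnajc3 was -0.24 without proximal library 3. Tested genes with the UPRE core went both ways. Copb1 and Copb2 had 0.23 and 0.19, and Sec23a, Kdelr3 and Sec24d had -0.09, -0.34 and -0.63. The isomerases Pdia4 and Pdia5 had 0.16 and -0.17, and Dnajb11, a co-chaperone of BiP, had 0.08.

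COPII vesicles form when the small GTPases Sar1a and Sar1b recruit the inner coat of Sec23 and Sec24 and the outer cage of Sec13 and Sec31. Of 17 tested genes of the coat and of cargo exit, 12 had negative and 5 positive differences. Sec24d, an adaptor that selects cargo and is mutated in a human brittle-bone syndrome, lies on chromosome 3 from 123267455 to 123365641, plus strand (mm10). It stood at 74.3, 81.1 and 92.1 CPM proximally and 66.3, 38.6 and 55.2 CPM distally. Every proximal library was above every distal one, and the distal libraries were the more spread. The means were 82.5 ± 8.99 and 53.3 ± 14.0 CPM, the distal level 0.648 of the proximal one. The log2 difference was -0.63 (SE 0.22, 95% interval -1.11 to -0.14) and did not pass the test (edgeR, adjusted p = 0.229).

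The other Sec24 forms did not share this size of difference. Sec24a stood at 16.1, 16.01 and 18.4 CPM proximally and 14.4, 13.9 and 10.6 CPM distally, without overlap (log2 difference -0.38, SE 0.27; edgeR, adjusted p = 0.762). Sec24b and Sec24c had log2 differences of 0.02 (SE 0.26) and -0.05 (SE 0.22), with the regions overlapping. The differences between the Sec24 forms were not tested. The partner Sec23a, which is mutated in a human syndrome of poor skull ossification, stood at 115, 101 and 101 CPM proximally and 109, 108 and 81.9 CPM distally, with overlap and a log2 difference of -0.09 (SE 0.17). Sar1a, which starts the coat, had -0.01 (SE 0.13), and Sec13 had 0.27 (SE 0.17; edgeR, adjusted p = 0.700). The remaining coat and exit-site genes Sar1b, Sec31a, Sec16a, Sec23b and Sec23ip had log2 differences of -0.04, -0.01, -0.09, 0.24 and 0.18. Those of Sec22a, Sec22b and Sec22c were -0.36, -0.19 and -0.22.

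Mia3 encodes TANGO1, which spans the ER membrane at exit sites and loads procollagen into the forming carrier (chromosome 1, 183326725 to 183369553, minus strand). It stood at 64.9, 57.4 and 75.2 CPM proximally and 39.6, 45.5 and 59.6 CPM distally. Distal libraries 1 and 2 were below all proximal ones, and distal library 3 lay between proximal libraries 2 and 1. The log2 difference was -0.45 (SE 0.21, 95% interval -0.92 to 0.01; edgeR, adjusted p = 0.491). Its partner Ctage5, now named Mia2, stood at 30.8, 27.6 and 51.1 CPM proximally and 31.7, 33.5 and 46.2 CPM distally, with full overlap (log2 difference 0.0021, SE 0.28).

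The p24 proteins of the Tmed family pick cargo for these vesicles. Their 8 tested genes had log2 differences of -0.33 (Tmed2) to 0.05 (Tmed10) and the regions overlapped in each. Tmed2 stood at 197, 121 and 187 CPM proximally and 145, 149 and 109 CPM distally (SE 0.21; edgeR, adjusted p = 0.700), with proximal library 2 below 2 of the distal libraries. Tmed5 stood at 59.6, 31.5 and 32.4 CPM and at 41.6, 36.7 and 25.6 CPM (log2 difference -0.23, SE 0.29; edgeR, adjusted p = 0.913). Tmed9 varied the least in the family, at 177 to 201 CPM over the 6 libraries. Tmed1, Tmed3, Tmed4 and Tmed7 had 0.04, -0.12, 0.02 and -0.04.

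The COPI coat, which carries material back from the Golgi to the ER, had more positive than negative differences, 5 of 8, with a median of 0.13, and none of the 8 passed the test. Copg1, a coat subunit, stood at 137, 135 and 138 CPM proximally and 173, 158 and 138 CPM distally. Distal library 3 exceeded the highest proximal library by less than 1 CPM, so the regions barely separated (log2 difference 0.20, SE 0.14; edgeR, adjusted p = 0.775). Copz1 went the other way at 276, 260 and 235 CPM proximally and 226, 229 and 214 CPM distally, again without overlap (log2 difference -0.20, SE 0.13; edgeR, adjusted p = 0.717). Cope had 0.15 (SE 0.14; edgeR, adjusted p = 0.856), and Copa, Copb1, Copb2, Copg2 and Copz2 had -0.13, 0.23, 0.19, 0.11 and -0.23.

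The KDEL receptors capture the escaped residents whose signals are printed above. Kdelr1, Kdelr2 and Kdelr3 had log2 differences of -0.13 (SE 0.15), -0.03 (SE 0.13) and -0.34 (SE 0.24), with adjusted p (edgeR) of 0.900, 0.982 and 0.768. Without distal library 2 the values for Kdelr1 and Kdelr2 were -0.02 and 0.03, and that for Kdelr3 was -0.67 without distal library 1 and -0.17 without distal library 3. Kdelr2 stood at 430, 468 and 460 CPM proximally and 445, 398 and 484 CPM distally, so the highest and the lowest library were both distal. Kdelr3 stood at 152, 114 and 113 CPM proximally and 140, 82.8 and 75.8 CPM distally, with library 1 high in both regions. Ddx17 covers the annotated 3′ end of Kdelr3. The same holds for Mest at Copg2, Nmb at Sec11a, Mtf2 at Tmed5, Dnm2 at Tmed1, Ticam2 at Tmed7, Gm26636 at Copg1, Gm30505 at Dnajb11, Gm17529 at Sec23a and 6230400D17Rik at Sec24c.

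Creb3l1 encodes OASIS, an ER-anchored transcription factor that is released by cleavage and drives the type I collagen gene in mouse osteoblasts. It lies on chromosome 2 from 91982328 to 92024502, minus strand. It stood at 42.8, 49.1 and 68.7 CPM proximally and 28.7, 32.2 and 34.5 CPM distally. All proximal libraries lay above all distal ones, proximal library 3 was the highest, and the distal libraries were close together. The means were 53.6 ± 13.5 and 31.8 ± 2.94 CPM, the distal level 0.588 of the proximal one. The log2 difference was -0.77 (SE 0.23, 95% interval -1.27 to -0.26), the largest in size among the members, and did not pass the test (edgeR, adjusted p = 0.134). It rested on 515 counts over the 6 libraries. Without proximal library 3 the log2 difference was -0.53 (edgeR, adjusted p = 0.529).

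Creb3l2, the relative that drives Sec23a in mouse cartilage, rested on 143 counts. It stood at 11.4, 11.6 and 15.1 CPM proximally and 16.3, 6.32 and 11.1 CPM distally, where the highest and the lowest library were both distal. The log2 difference was -0.17 (SE 0.36, 95% interval -0.96 to 0.63; edgeR, adjusted p = 0.957). Its size and sign varied with single libraries left out: it was -0.54 without distal library 1 and 0.10 without distal library 2.

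**Figure D2:**
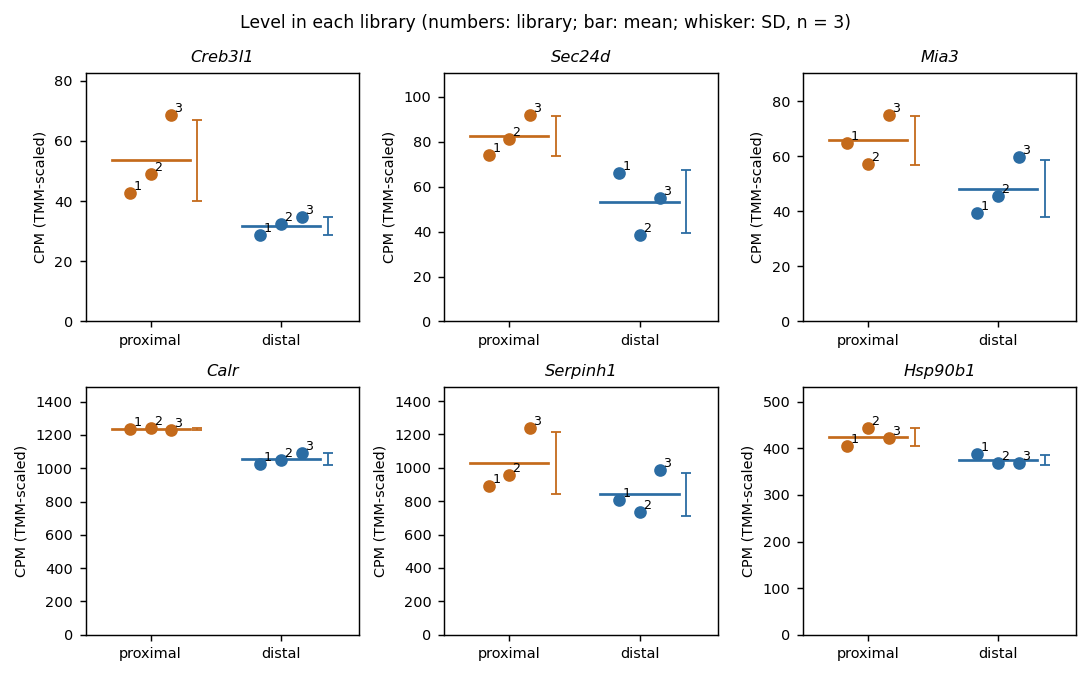
Points give the TMM-scaled level (CPM) of 6 genes in each of the 3 proximal (orange) and 3 distal (blue) libraries, with the mean as a bar and the SD as a whisker. The regions do not overlap for Creb3l1, Sec24d, Calr and Hsp90b1, and they overlap for Mia3 and Serpinh1.

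The members with the widest spread over the 6 libraries were picked out after their values were seen. In Sec22a, a relative of vesicle fusion proteins, the highest library was 5.81 times the lowest, in the COPI subunit Copb1 3.89 times, in the glycoprotein isomerase Pdia3 3.46 times and in the translocon subunit Sec61g 3.32 times. Copb1 (chromosome 7, 114215559 to 114254711, minus strand) stood at 91.0, 27.6 and 27.3 CPM proximally and 64.3, 79.0 and 23.4 CPM distally. It was high in proximal library 1 and distal libraries 1 and 2 and low in the other 3. Sec22a stood at 38.8, 14.4 and 15.1 CPM and at 25.7, 19.0 and 6.69 CPM, and Pdia3 at 201, 58.0 and 121 CPM and at 136, 145 and 73.5 CPM. In both, the same 3 libraries were the highest.

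Hspa5, which encodes BiP, the main ER chaperone and sensor of unfolded protein, was ordered in the same way. It stood at 490, 285 and 322 CPM proximally and 389.4, 416 and 232 CPM distally, high in proximal library 1 and distal libraries 1 and 2, with a log2 difference of -0.08 (SE 0.25; edgeR, adjusted p = 0.976). Sec61g was low in library 3 of each region, at 281, 220 and 84.5 CPM and at 250, 256 and 93.6 CPM. The share of counts in Rn45s, at 11.7%, 2.94% and 2.20% in proximal and 4.63%, 6.81% and 2.98% in distal libraries, was likewise highest in proximal library 1 and distal libraries 1 and 2, and its part in these values was not tested.

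**Figure D3:**
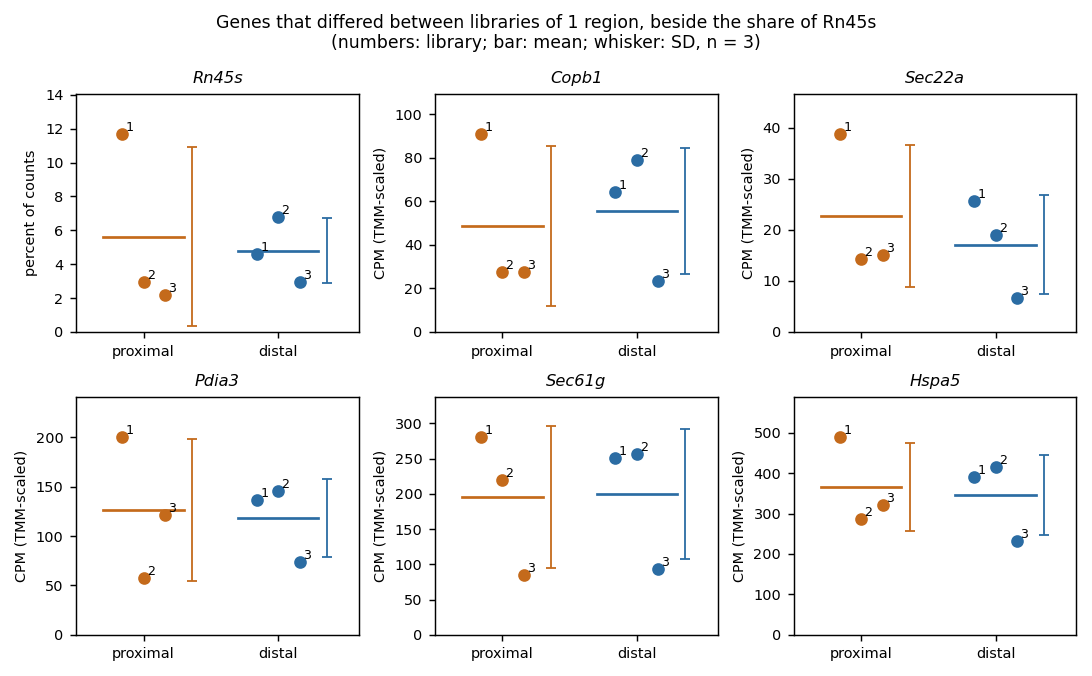
The first panel gives the percent of counts in Rn45s and the others the level (CPM) of 5 genes in each library, with the mean as a bar and the SD as a whisker (n = 3). Proximal library 1 and distal libraries 1 and 2 are the highest for Rn45s, Copb1, Sec22a, Pdia3 and Hspa5, while Sec61g is low in library 3 of both regions.

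Leaving out proximal library 1 and distal library 3 together, a setting that earlier results of these data pointed to, left 2 libraries a region and changed the calls. Copb1 and Copb2 then passed the test towards distal libraries, with log2 differences of 1.38 and 0.61 (edgeR, adjusted p = 0.0018 and 0.028). Creb3l1 passed towards proximal libraries at -0.97 (edgeR, adjusted p = 0.022). In that setting 3 of 72 members and 8.73% of all genes were called. For Copb1 and Copb2 the libraries left out were the highest proximal and the lowest distal ones. For Creb3l1 they were the lowest proximal and the highest distal ones. Leaving them out thus widened each difference by itself, and these calls are no separate evidence. The libraries kept differed in Rn45s share by region, at 2.20% to 2.94% in proximal and 4.63% to 6.81% in distal ones. Over all 18 alternatives, the log2 difference of Creb3l1 ran from -0.97 to -0.53, with an adjusted p (edgeR, DESeq2 or limma) of 0.022 to 0.529. That of Copb1 ran from -0.11 to 1.38, with an adjusted p of 0.0018 to 0.9997 by the same tests.

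Neighbouring parts of the pathway, taken from textbook lists, also held no gene past the test. Of 16 tested genes of the unfolded protein response, 14 had negative differences (4642 of all 9512 genes tested did), with a median of -0.15. Xbp1, its spliced transcription factor, stood at 173, 167 and 213 CPM proximally and 170, 123 and 158 CPM distally (log2 difference -0.29, SE 0.17; edgeR, adjusted p = 0.655). Atf4 and Ddit3, the factors of its PERK arm, had -0.02 (SE 0.23) and 0.05 (SE 0.28). Asns, an amino acid enzyme that ATF4 drives, stood at 40.8, 38.1 and 43.5 CPM proximally and 62.8, 55.0 and 51.8 CPM distally, without overlap (log2 difference 0.47, SE 0.19; edgeR, adjusted p = 0.338). Of the 16 genes it alone had an unadjusted p under 0.05 (edgeR). Eif2ak3, which encodes PERK itself, had -0.73 (SE 0.38; edgeR, adjusted p = 0.567) at levels of 3.79 to 11.9 CPM.

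The 18 tested genes of ER-associated degradation, which removes misfolded proteins, had a median of -0.09, with the ubiquitin-conjugating enzyme Ube2j1 at -0.45 (SE 0.27). The 17 genes of N-glycosylation and its lectin checks had a median of -0.06. In that list the cargo lectin Lman2 stood at 174, 181 and 160 CPM proximally and 142, 121 and 149 CPM distally, without overlap (log2 difference -0.32, SE 0.15; edgeR, adjusted p = 0.467), and the oligosaccharyltransferase subunit Krtcap2 had -0.26 (SE 0.14). The 16 genes of other ER insertion routes had a median of -0.03. Emc6, of the membrane insertion complex, was higher in every proximal library at 161, 162 and 145 against 121, 115 and 128 CPM (log2 difference -0.36, SE 0.14; edgeR, adjusted p = 0.318), while Tram1 had 0.33 (SE 0.21). The 34 genes of other ER to Golgi traffic had a median of -0.04, with the fusion protein Gosr1 at -0.56 (SE 0.28) and the exit-site protein Tfg at 0.19 (SE 0.13).

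The widest machinery list was that of 29 other folding and collagen-modifying enzymes, with a median of 0.01. P4ha2, a catalytic subunit of the prolyl 4-hydroxylase whose other subunit is P4hb, stood at 55.5, 49.7 and 51.4 CPM proximally and 128, 53.1 and 108 CPM distally. Distal libraries 1 and 3 were more than 2-fold above the proximal mean and distal library 2 lay among the proximal libraries (log2 difference 0.89, SE 0.28; edgeR, adjusted p = 0.167). It passed in 1 of 18 alternatives, at 1.17 without distal library 2 (edgeR, adjusted p = 0.015), and otherwise went as low as 0.64, with an adjusted p of up to 0.581. Fkbp10, a prolyl isomerase that works on procollagen with HSP47, stood at 195, 260.5 and 301 CPM proximally and 172, 155.5 and 223 CPM distally, with overlap (log2 difference -0.46, SE 0.19; edgeR, adjusted p = 0.397).

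Part of the cargo list passed the test where the carriers did not. Of 12 tested collagen genes, 6 passed the test, 2 towards distal libraries and 4 towards proximal ones. Of all genes tested, 1.11% and 2.27% did. The microfibrillar collagen gene Col6a2 stood at 183, 220 and 314 CPM proximally and 75.2, 62.6 and 109 CPM distally, without overlap (log2 difference -1.54, SE 0.25; edgeR, adjusted p = 0.0060). Its partner Col6a1 stood at 111, 91.6 and 133 CPM and at 59.4, 57.5 and 65.7 CPM, also without overlap (log2 difference -0.88, SE 0.18; edgeR, adjusted p = 0.027). The other 4 that passed, Col2a1, Col9a1, Col5a2 and Col1a2, had log2 differences of 1.84, 1.62, -1.32 and -0.83. Partner genes did not all follow. Col6a3 had -0.30 (edgeR, adjusted p = 0.820) and Col1a1 -0.90 (edgeR, adjusted p = 0.372), with the regions overlapping for both. The difference between the cargo and the machinery was not itself tested, and Col2a1, Col9a1 and Col1a2 are also among the cartilage and tendon markers. Summed tendon markers were at 4559 to 6713 CPM proximally and 4389 to 6465 CPM distally, a sum over genes that moved in opposite directions. Of the 9 tendon markers, all tested, 2 passed towards distal and 1 towards proximal libraries. Their log2 differences ran from -1.89 to 2.35.

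**Figure D4:**
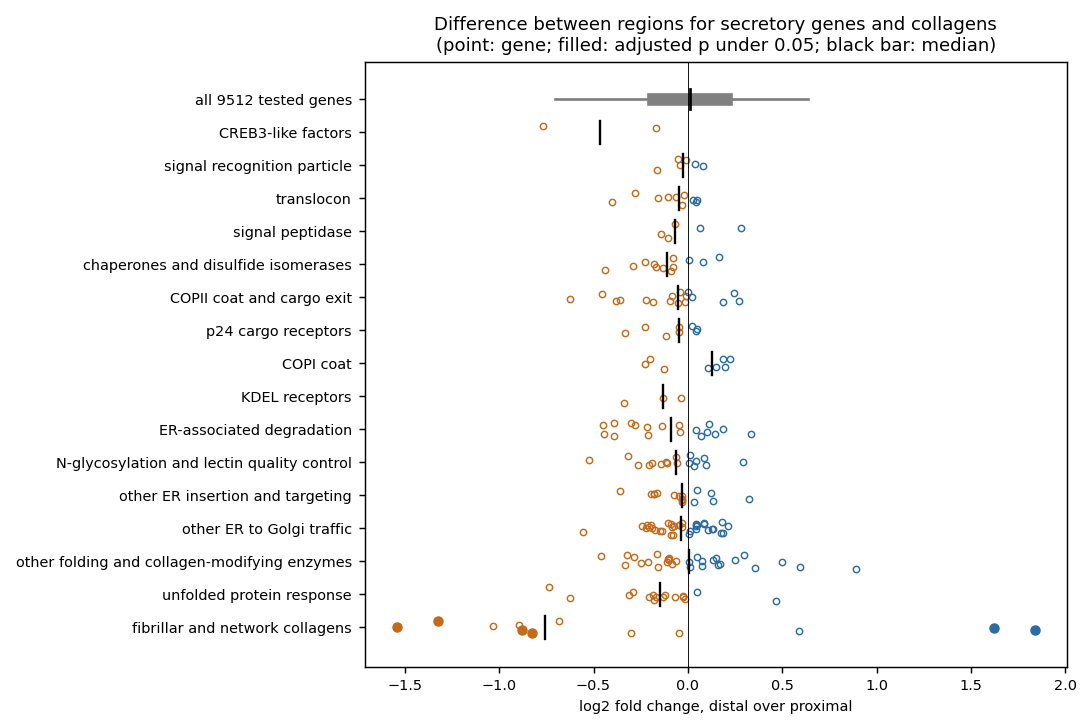
Each point is the log2 fold change (distal over proximal) of 1 gene, arranged by role or related list, orange below 0 and blue above; black bars are medians, and for all 9512 genes the thick grey bar is the interquartile range and the thin line the range from the 5th to the 95th percentile. Filled points, those with an edgeR adjusted p under 0.05, occur among the 12 collagen genes and in none of the machinery lists.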

How the data were processed

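The authors deposited raw counts per gene and normalized counts of bulk MARS-seq libraries (3′ ends only, per the labels). The deposited normalized counts are a signal, the counts divided by 1 size factor per library, and entered no test. The build mm10 and the tools TopHat2, HTSeq, DESeq2, cutadapt (1.8.3) and bcl2fastq (2.17.1.14) are listed, without roles, per the submitters' processing notes. For strand setting, annotation and molecular identifiers the sources used here give nothing, so copies and overlapping genes may share reads. The table holds genes with at least 6 counts in all.

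From the counts, edgeR 4.0.16 in R 4.3.3 (TMM, filterByExpr by region with minimum count 10 and minimum total 15, robust quasi-likelihood F test) was fitted on all 6 libraries with region as the only term. Of 13158 genes, 9512 were tested, and p-values were adjusted over all of them by the Benjamini-Hochberg method (threshold 0.05). SE is the absolute log2 difference divided by the square root of the F statistic, and 95% intervals use the fitted degrees of freedom. CPM are TMM-scaled; those of markers use the totals of all genes. The procedure was tested on simulated data. Every member may be named. Full statistics went to members and related genes with the smallest p in each list, the most abundant member of each role and 13 genes known from ER stress or collagen secretion. Members and lists were chosen with earlier results of these data known, so no list was tested as a whole. Alternatives were other scalings, filters and thresholds, DESeq2 1.42.0, limma-voom (limma 3.58.1), the replicate number as a block, left-out libraries, Rn45s left out and, added after seeing the data, the log2 share of Rn45s as a term. Positions are from GENCODE M21 (mm10) and promoters from RefSeq (GRCm38.p6). Of the related genes, outside the members, not every one that the naming rule takes is reported here.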

Additional observations from a re-analysis of the deposited data

How the results depend on the processing

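The number of members called stayed at 0 in either direction under other scalings, filters, tests, a threshold of 0.01, Rn45s left out and each library left out in turn (0 to 0). The exceptions were the fit without both proximal library 1 and distal library 3, with 2 members called towards distal libraries (Copb1 and Copb2) and 1 towards proximal ones (Creb3l1), and the Rn45s share as a term, added after seeing the data, with 1 higher in proximal libraries (Creb3l1, log2 difference -0.72, edgeR, adjusted p = 0.037). The cause was not tested. The members' median log2 difference, -0.06, moved to 0.028 with that pair of libraries left out and ran from -0.12 to -0.00017 with single libraries left out. The collagen-modifying genes P4ha2 without distal library 2 (1.17) and Fkbp10 with the pair left out (-0.77, edgeR, adjusted p = 0.0087) also passed. With the replicate number as a block, 0 members passed, 8 had an unadjusted p under 0.05, the median was -0.06 and 465 genes were called in all, against 322. The smallest adjusted p of a member was then 0.054 (edgeR, Creb3l1). Same-numbered libraries correlated at 0.354, -0.136 and 0.479 in their deviations. Proximal library 1 correlated at 0.360 with distal library 2, about as with distal library 1. Proximal library 3 correlated best with distal library 3, and so did proximal library 2 (0.288). These mixed values cannot settle whether the numbers pair the libraries, and the main fit did not use them as pairs. In the 250 bases before the RefSeq start alone, 37 promoters (0.113%) held the ERSE and 185 (0.563%) the UPRE core, with 6 and 4 of the 69 entries. Depth limits the scarce members most: Creb3l2 rested on 143 counts.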
